A study of Danio rerio with 24 samples.

Results

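The genes described here encode the proteins of the cytosolic ribosome, measured in zebrafish carrying the young (yng) mutation and in wild type (WT) on Affymetrix zebrafish arrays. Members were taken by gene symbol: every probe set (a group of short probes for 1 transcript) whose symbol is rpl or rps followed by a number and optional letters, together with rplp0, rplp1, rplp2 and rpsa. This gave 71 probe sets for 69 of the 8793 gene symbols on the array, and each gene was read at its brightest probe set. Of the 69 symbols 42 name proteins of the large subunit and 26 proteins of the small subunit. The remaining symbol, rps6kal, names a gene like the kinases that phosphorylate ribosomal protein S6 and is no ribosomal protein. Neither rplp1 nor rpl41 had a probe set under its own symbol.

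A cytosolic ribosome is built from a small subunit, which holds the mRNA and decodes it, and a large subunit, which joins amino acids and carries the exit tunnel for the new chain. Ribosomal proteins are made in nearly all cells and in matched amounts, and in vertebrates their mRNAs begin with an oligopyrimidine tract that ties their translation to growth signals. In the developing fish eye, the dividing cells at the margin of the retina are known for high expression of genes of ribosome production.

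The series crossed genotype, tissue and age, with 3 arrays in each of 8 groups. The groups were yng and WT retinas at 52 hours post fertilization (hpf), yng and WT retinas at 36 hpf, and yng and WT whole embryos at 52 and 36 hpf. The young mutation lies in smarca4a (brg1), the gene for a chromatin remodelling ATPase of the SWI/SNF type, and yng animals were staged by their WT siblings. A pool held 10 embryos or 10 retinas, except that a yng retina pool at 36 hpf held 20 retinas from 10 embryos. All groups carried the strain label AB, apart from WT embryo 36 hpf replicate 1, which has no strain label. All groups shared a labelling of 33 ng of total RNA in 2 rounds of amplification. The mutation acts in the whole animal, and a pooled retina or embryo mixes cell types, so fewer cells of a type and less RNA per cell cannot be told apart.

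The check of the mutated gene came first. Both probe sets of smarca4a were lower in yng in all 4 genotype comparisons, by between -1.575 and -2.083 on the log2 scale. The labelled tissues carried their markers: the summed deposited intensity of 14 retina genes was 20610 to 34820 in retinas and 5237 to 9829 in embryos. The summed intensity of 11 muscle genes was 394 to 896 in retinas and 104400 to 118300 in embryos. In retinas and embryos the 9 skin genes summed to 215.5 to 324.3 and 39320 to 49380, the 6 yolk, liver and gut genes to 92.53 to 572.1 and 45980 to 53320, the 8 blood genes to 2168 to 6825 and 22710 to 31750, the 6 lens genes to 149.9 to 3721 and 6622 to 18990, and the 3 pigment cell genes to 361.1 to 635.7 and 1111 to 1603. The median deposited intensity of an array was 145 to 165 in retinas and 223 to 241 in embryos, and 217 to 313 probe sets were listed at 0 on retina arrays, against 36 to 52 on embryo arrays. Arrays of the same replicate number were hybridized on the same day in 7 of 8 groups, per the instrument records, with WT embryo 52 hpf replicate 3 alone on another day. All yng arrays were washed on 1 fluidics station and all WT arrays on another, and the effects of genotype and station cannot be told apart. Within a station, each combination of tissue and age had its own fluidics module, with the same module number in yng and WT. The effects of module therefore cannot be told apart from those of age and tissue, or from a difference in the age change between tissues.

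Ribosomal protein probe sets were among the brightest on the array. In what follows, "the 67" are the members without rps6kal and without rps27l, which was set apart after its values had been seen. Ranked by mean log2 intensity over 24 arrays among 15502 probe sets, the 67 had a median rank of 59 and lay between rank 2 and rank 492, with 49 of the 67 in the 100 brightest and 64 in the 200 brightest. The 5 brightest members were rps2, rpl3, rpsa, rpl8 and rpl4. rps2, a protein at the mRNA entry side of the small subunit, had a deposited intensity between 16180 and 17750 over the arrays, and rpsa, which also has a separate history as a laminin receptor, lay between 12030 and 15320. The 5 dimmest members were rps6kal, rps27l, rpl27a, rpl17 and rpl39, with rps27l at rank 2650 and rps6kal at rank 8007. The brightness of different probe sets is no measure of their relative transcript amounts, since each set binds with its own efficiency.

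The brightest of these values also lie close to the top of what the arrays reported. The deposited intensities of the 67 ran from 2496 to 17750, and the highest intensity on an array was 17592.5 to 20110.5. How far differences between bright probe sets are compressed there was not tested. The spread was small: the pooled standard deviation within groups had a median of 0.079 on the log2 scale over the 67, against 0.198 over all probe sets. The range of the 8 group means was also small, with a median of 0.22 over the 67. The 4 members with the narrowest range were rps23 at 0.091, rps2 at 0.11, rpl22 at 0.11 and rpl14 at 0.12. The 4 with the widest range were rps27l at 2.17, rps6kal at 1.26, rpl27a at 0.58 and rps29 at 0.52.

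The first comparison asked which ribosomal protein genes differ between yng and WT within a tissue and age. Of the 69 genes, rps27l alone passed the test, being higher in yng retinas at 52 hpf. rps27l encodes a close relative of the small-subunit protein Rps27, and its human counterpart is a known target of the transcription factor p53. None of the other 68 passed in retinas or embryos at either age, by limma's moderated test with Benjamini-Hochberg adjustment over all 15502 probe sets and a threshold of 0.05. In the same tests the share of the whole array that passed was 19.7% in retinas at 52 hpf, 9.08% in retinas at 36 hpf, 5.9% in embryos at 52 hpf and 5.95% in embryos at 36 hpf. Split by direction, 10.0% were higher and 9.7% lower in yng retinas at 52 hpf, and 4.19% higher and 4.9% lower in yng retinas at 36 hpf. In yng embryos 2.77% were higher and 3.13% lower at 52 hpf, and 2.78% higher and 3.17% lower at 36 hpf.

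In retinas at 52 hpf rps27l had a normalized intensity of 583, 873 and 688 on the yng arrays, against 305, 398 and 375 on the WT arrays. The groups did not overlap, and the lowest yng array was above the highest WT array. The difference was 0.95 on the log2 scale (SE 0.18, n = 3 against 3), a 1.93-fold higher intensity in yng, with a limma adjusted p of 0.0004508. The difference within the 3 hybridization days was 0.903, 1.101 and 0.849.

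In the other groups rps27l was also higher on average in yng, without passing. Retinas at 36 hpf had 738, 1166 and 779 in yng, against 662, 741 and 701 in WT, a difference of 0.32 (SE 0.18, limma adjusted p = 0.3409) with overlapping groups. Embryos at 52 hpf had 1482, 1845 and 1483 in yng, against 1200, 1427 and 1285 in WT, a difference of 0.29 (SE 0.18, limma adjusted p = 0.4737). Embryos at 36 hpf had 1487, 1994 and 1537 in yng, against 1005, 1422 and 1281 in WT, a difference of 0.43 (SE 0.18, limma adjusted p = 0.1828). The yng and WT embryos did not overlap at either age. Replicate 2 was the highest array of rps27l in all 8 groups, and rps27l was higher in yng in 12 of 12 pairs of arrays with the same number.

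With the hybridization day as a block, rps27l passed in retinas at 36 hpf (limma adjusted p = 0.03104) and in embryos at 36 hpf (limma adjusted p = 0.006047), but not in embryos at 52 hpf (limma adjusted p = 0.09881). WT embryo 52 hpf replicate 3, alone on its day, carries no weight in that fit. In that fit 30.8%, 18.0%, 9.41% and 14.2% of all probe sets passed in retinas at 52 and 36 hpf and in embryos at 52 and 36 hpf. Whether the yng difference of rps27l changed with age in retinas was tested directly: the difference was 0.64 larger at 52 hpf than at 36 hpf (SE 0.25, limma adjusted p = 0.2227), which passed with the day block (limma adjusted p = 0.006207). The yng difference at 52 hpf was 0.66 larger in retinas than in embryos (SE 0.25, limma adjusted p = 0.1514), and this too passed with the day block (limma adjusted p = 0.007576). For both interactions none of the 69 genes passed without the block, against 4.11% and 6.84% of all probe sets, and with it rps27l alone passed, against 8.73% and 11.4%.

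Some other measures moved with genotype in the same retinas. The 6 lens genes summed to 449.5 to 3721 on yng retina arrays at 52 hpf, against 149.9 to 186.1 on WT arrays, with crygmxl2 at 0 on all WT arrays. The 6 yolk, liver and gut genes summed to 92.53 to 133.3 on yng arrays and 275.2 to 572.1 on WT arrays. The 3'/5' ratio of gapdh, a measure of RNA integrity and amplification, was 3.06 ± 0.35 on the log2 scale in yng retinas at 52 hpf and 2.68 ± 0.31 in WT retinas (SD, n = 3 each). Their part in the rps27l difference was not tested. The muscle genes, which are bright in embryos, summed to 557.5 to 658 in yng and 659.1 to 895.9 in WT retinas at 52 hpf, with myl1 and pvalb2 at 0 in both. The retina genes summed to 29710 to 31520 in yng and 31380 to 34820 in WT retinas at 52 hpf. The blood, skin and pigment cell genes overlapped between these groups, with blood genes at 2608 to 6284 in yng and 3792 to 4563 in WT.

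**Figure D1:**
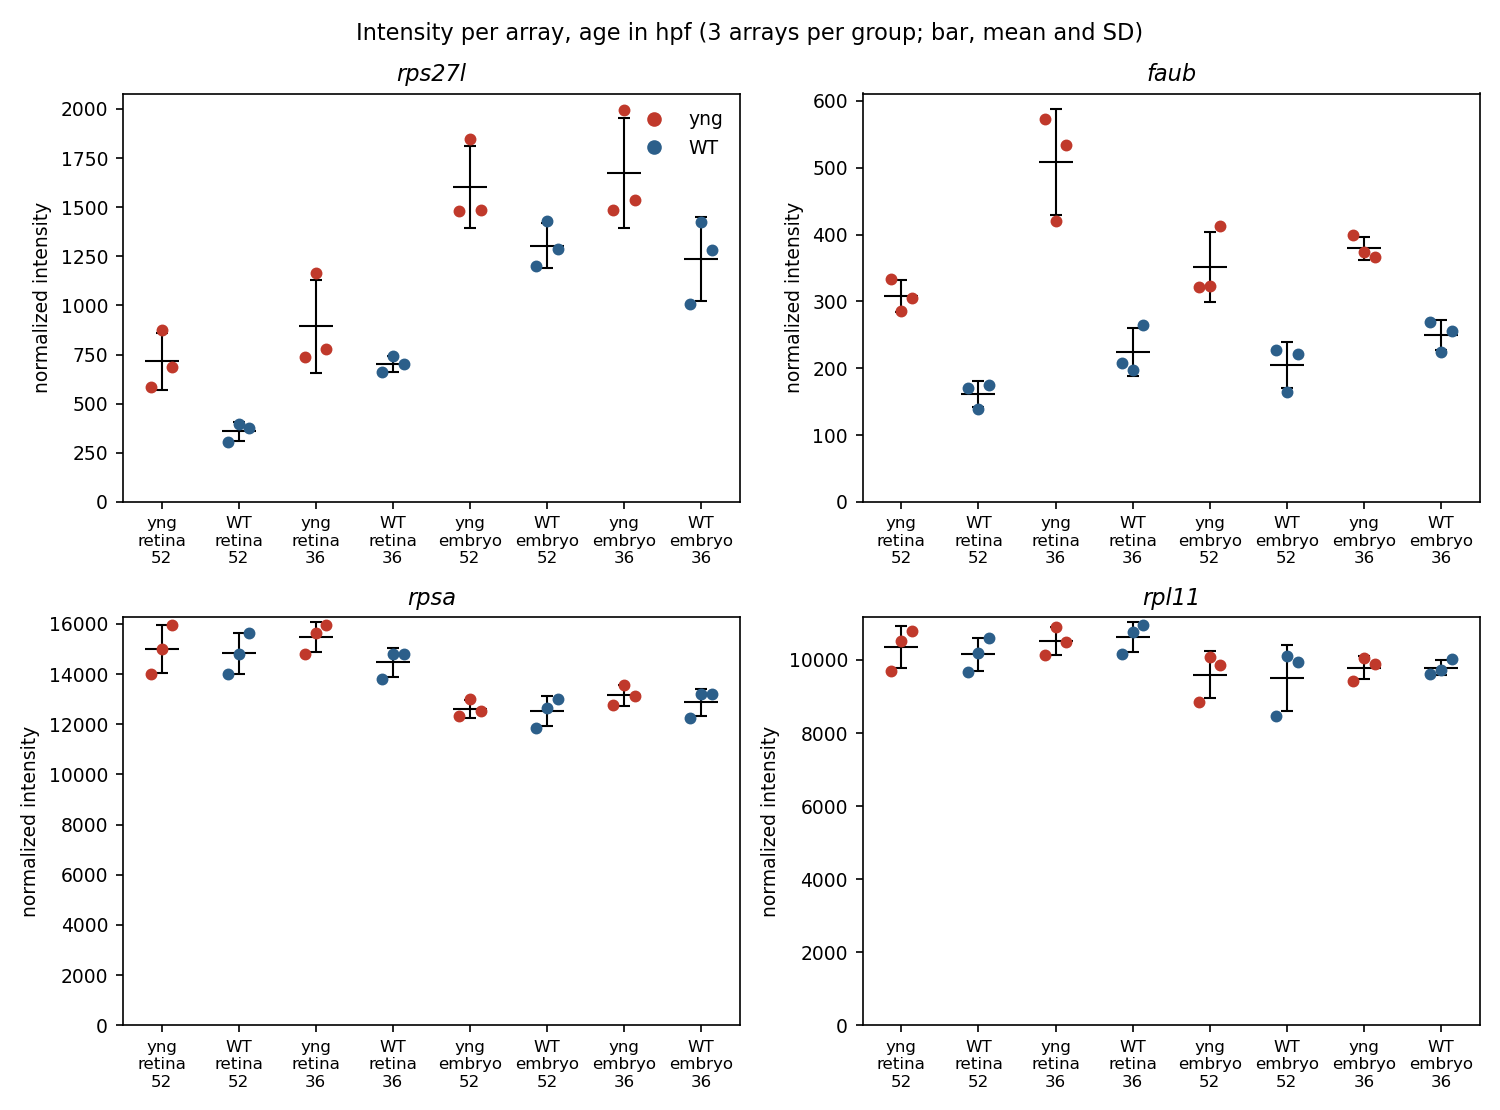
Normalized intensity (y axis, linear, from 0) of 4 genes on each array, by genotype, tissue and age in hpf (x axis), in yng (red) and WT (blue), with the mean and SD of 3 arrays in black. rps27l at 52 hpf in retinas lies at 583 to 873 in yng and 305 to 398 in WT, and faub is higher in yng in all 4 pairs of groups, while rpsa and rpl11 overlap between genotypes in each of them.

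The 67 other ribosomal protein genes gave differences near 0. Their median yng minus WT difference was 0.001 in retinas at 52 hpf, -0.004 in retinas at 36 hpf, 0.003 in embryos at 52 hpf and -0.013 in embryos at 36 hpf. The medians over all probe sets were 0.041, 0.019, 0.006 and 0.007 for the same 4 comparisons. In the fit without a block, no single gene of the 67 reached an unadjusted p under 0.05 in any of them. In retinas at 52 hpf the differences ran from -0.16 for rpl13 to 0.11 for rpl37. rpl13, a large-subunit protein, had 6925, 7680 and 8304 in yng retinas at 52 hpf, against 7152, 8766 and 9783 in WT retinas, and the groups overlapped. Within each hybridization day rpl13 was lower in yng there. Its limma adjusted p was 0.6072 without a block and 0.08249 with the day block. In retinas at 36 hpf the highest was rpsa at 0.096, with 14810, 15640 and 15960 in yng against 13800, 14810 and 14810 in WT. In embryos the lowest difference at both ages was that of rpl24, -0.14 at 52 hpf and -0.13 at 36 hpf.

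The intervals of the fit without a block, which leaves the hybridization day in the spread, show how large a difference that fit still allows. The 95% interval lay within 0.5 log2 units of 0 for 65 of the 67 in retinas at 52 hpf, 67 in retinas at 36 hpf, 66 in embryos at 52 hpf and 67 in embryos at 36 hpf. The widest bound was that of rpl27a, 0.55 in retinas at 52 hpf. The smallest limma adjusted p among the 67 in that fit was 0.4692 (rpl34, retinas at 52 hpf).

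Members with a known role of their own were read one by one. Rpl5 and Rpl11 form, with the 5S rRNA, the particle that binds Mdm2 in mammals when ribosome assembly fails. Zebrafish has 2 genes for Rpl5, and the yng minus WT difference in retinas at 52 hpf was 0.064 for rpl5a, -0.027 for rpl5b and 0.027 for rpl11. rpl11 had 9699, 10530 and 10800 in yng retinas at 52 hpf, against 9674, 10190 and 10590 in WT retinas. The groups overlapped, as they did for rps19, a gene mutated in human Diamond-Blackfan anaemia, at 10720, 10490 and 10070 in yng and 10490, 10970 and 10530 in WT. rps14, another small-subunit gene tied to a human anaemia, differed by -0.030 there, and rps6, the substrate of the S6 kinases, by -0.003. The stalk proteins, which recruit translation factors, differed by 0.065 for rplp0 and 0.052 for rplp2. rps27a, a fusion of ubiquitin with a small-subunit protein, differed by -0.020, and rpl22, which in mice is needed in T cells, by 0.011. rpl10, a late joining large-subunit protein, differed by 0.029, rps3, at the mRNA entry of the small subunit, by -0.001, and rpl35, at the exit tunnel, by 0.001. None passed in any genotype comparison.

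rpl3 and rpl21 had a second probe set. For rpl3 the probe sets differed by 0.013 and 0.030 between yng and WT retinas at 52 hpf, and neither passed in any genotype comparison. The second probe set of rpl21 was dim, with group means of 5.08 to 5.94 on the log2 scale, and did not pass between genotypes. Against embryos it passed as higher in yng retinas at 52 and 36 hpf (0.66 and 0.79) and in WT retinas at 52 hpf (0.67). It passed in none of these on deposited values, and the brighter rpl21 probe set did not pass in them. The 6 members that lie on the chromosome of smarca4a (rps2, rps15a, rpl3, rpl27, rpl23 and rpl19) did not pass in any of them either.

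**Figure D2:**
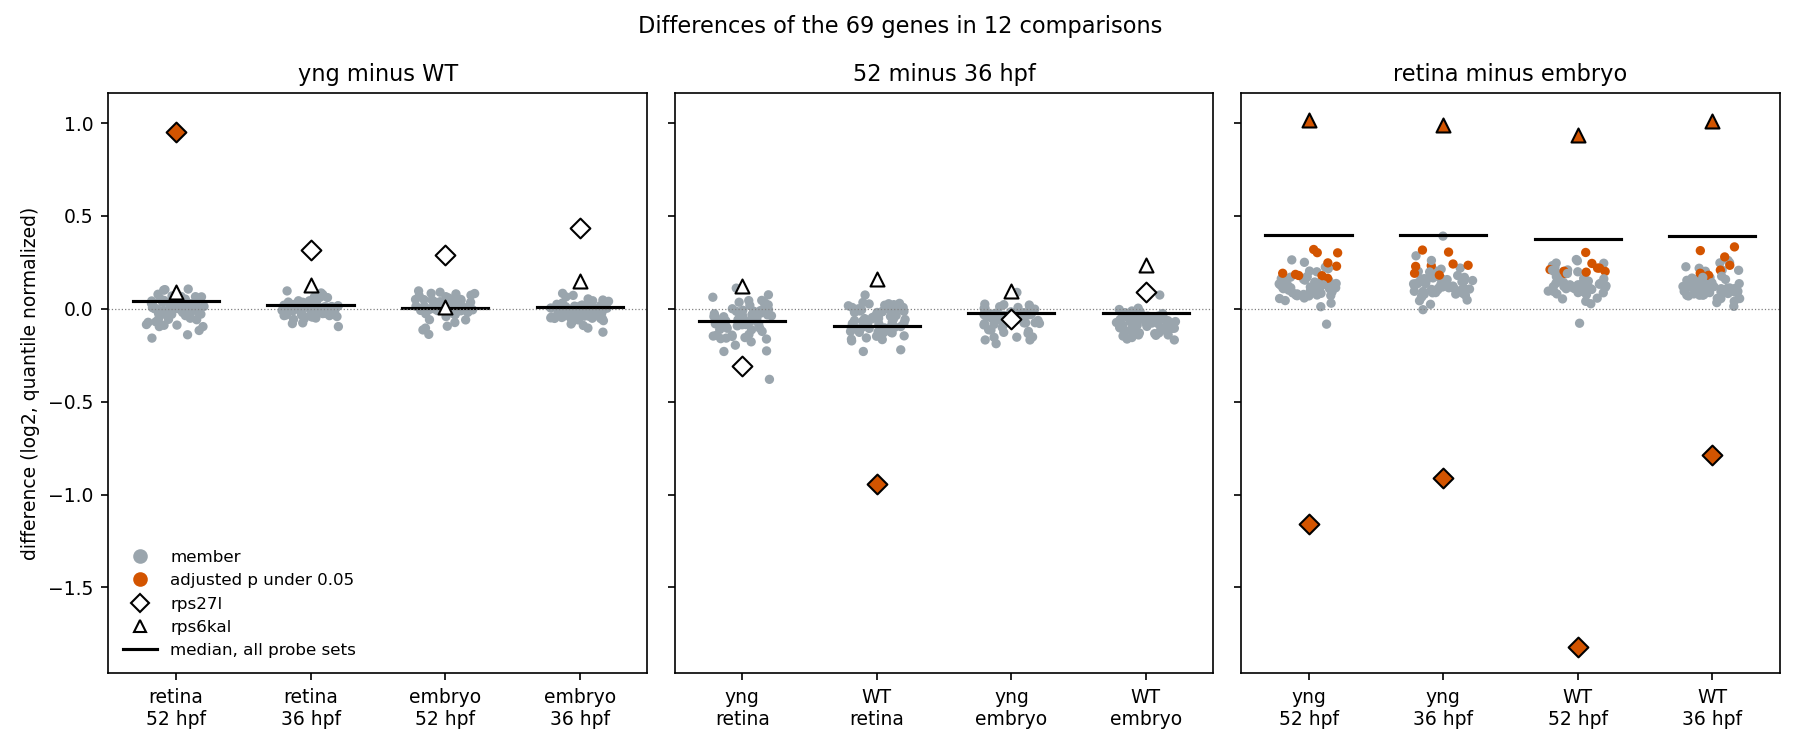
Difference on the log2 scale (y axis) of each of the 69 genes in 4 genotype, 4 age and 4 tissue comparisons (x axis), with members past the threshold in orange, rps27l as a diamond, rps6kal as a triangle and the median over all probe sets as a black line. The 67 other genes lie within 0.16 of 0 between genotypes, and in the tissue panel each lies below the median over all probe sets and above 0, apart from rpl5a at 52 hpf (-0.083 in yng and -0.078 in WT) and rpl14 at 36 hpf in yng (-0.005).

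The second comparison set 52 hpf against 36 hpf within each genotype and tissue. Again rps27l alone passed, in WT retinas, where it was lower at 52 hpf. Of all probe sets 25.6% passed between the ages in yng retinas, 36.9% in WT retinas, 8.83% in yng embryos and 14.3% in WT embryos. In WT retinas the intensity of rps27l was 305, 398 and 375 at 52 hpf, against 662, 741 and 701 at 36 hpf, a difference of -0.94 (SE 0.18, limma adjusted p = 0.00024). The groups did not overlap. In yng retinas it had 583, 873 and 688 at 52 hpf, against 738, 1166 and 779 at 36 hpf, a difference of -0.31 (SE 0.18, limma adjusted p = 0.2391). In embryos the difference was -0.056 in yng and 0.088 in WT. In WT retinas the 6 lens genes summed to 149.9 to 186.1 at 52 hpf and 413.4 to 788.9 at 36 hpf, the 6 yolk, liver and gut genes to 275.2 to 572.1 at 52 hpf and 92.94 to 153.5 at 36 hpf, and the gapdh 3'/5' ratio was lower at 52 hpf on each of the 3 days. The 11 muscle genes summed to 659.1 to 895.9 at 52 hpf and 401.5 to 499.0 at 36 hpf, with myl1 and pvalb2 at 0 at both ages, and the 14 retina genes to 31380 to 34820 at 52 hpf and 20610 to 22150 at 36 hpf. Their part in the result was not tested. The sums of the blood, skin and pigment cell genes overlapped between the ages. The change in WT retinas was tested against that in WT embryos and was 1.03 log2 units more negative (-1.029, SE 0.25, limma adjusted p = 0.008298), against 12.2% of all probe sets that passed that test in either direction, or 18.5% with the day block. The other 68 genes did not pass it, and none of the 69 passed the same test in yng, against 9.49% of all probe sets, or the tests of genotype against age in embryos (0.194%) and genotype against tissue at 36 hpf (2.37%).

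The 67 moved little, and mostly downward. Their difference was below 0 for 56 in yng retinas, 54 in WT retinas, 58 in yng embryos and 65 in WT embryos. The medians were -0.053, -0.063, -0.048 and -0.075 in these 4 groups, and the medians over all probe sets were -0.064, -0.091, -0.025 and -0.024. The genes share arrays and move together, so these counts are a description. None of the 67 passed, and at an unadjusted p under 0.05 there was 1, rpl5a in WT retinas.

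rpl5a had 8256, 9298 and 9080 in WT retinas at 52 hpf, against 9646, 10590 and 10800 at 36 hpf. The groups did not overlap, and the difference was -0.22 (SE 0.091, limma adjusted p = 0.06317). Its duplicate rpl5b had 12130, 12130 and 11860 at 52 hpf, against 11940, 12440 and 12240 at 36 hpf, a difference of -0.020. The lowest values elsewhere were -0.38 for rpl27a in yng retinas, -0.23 for rpl37 in WT retinas, -0.19 for rpl27a in yng embryos and -0.17 for rpl29 in WT embryos. At the other end stood rplp2, with the highest difference of the 67 in all 4 groups, 0.11 and 0.074 in yng and WT retinas and 0.088 and 0.074 in yng and WT embryos. rplp2 had 8801, 9207 and 9243 in yng retinas at 52 hpf, against 8256, 8304 and 8667 at 36 hpf, and the groups did not overlap.

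Blocking on the hybridization day moved these counts. Then 8 of the 67 were lower at 52 hpf in yng retinas, 5 in WT retinas and 1 in WT embryos, and none in yng embryos. All probe sets passed as lower in 21.0%, 27.7%, 10.2% and 8.72% of cases in that order. In yng retinas these were rpl13, rpl17, rpl23a, rpl27a, rpl4, rpl5a, rpl7 and rps9, and in WT retinas rpl13, rpl17, rpl37, rpl5a and rps29. The gene in WT embryos was rps29, at -0.16. These genes were named after their values had been seen. In that fit rps27l also passed as lower at 52 hpf in yng retinas (limma adjusted p = 0.01874).

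**Figure D3:**
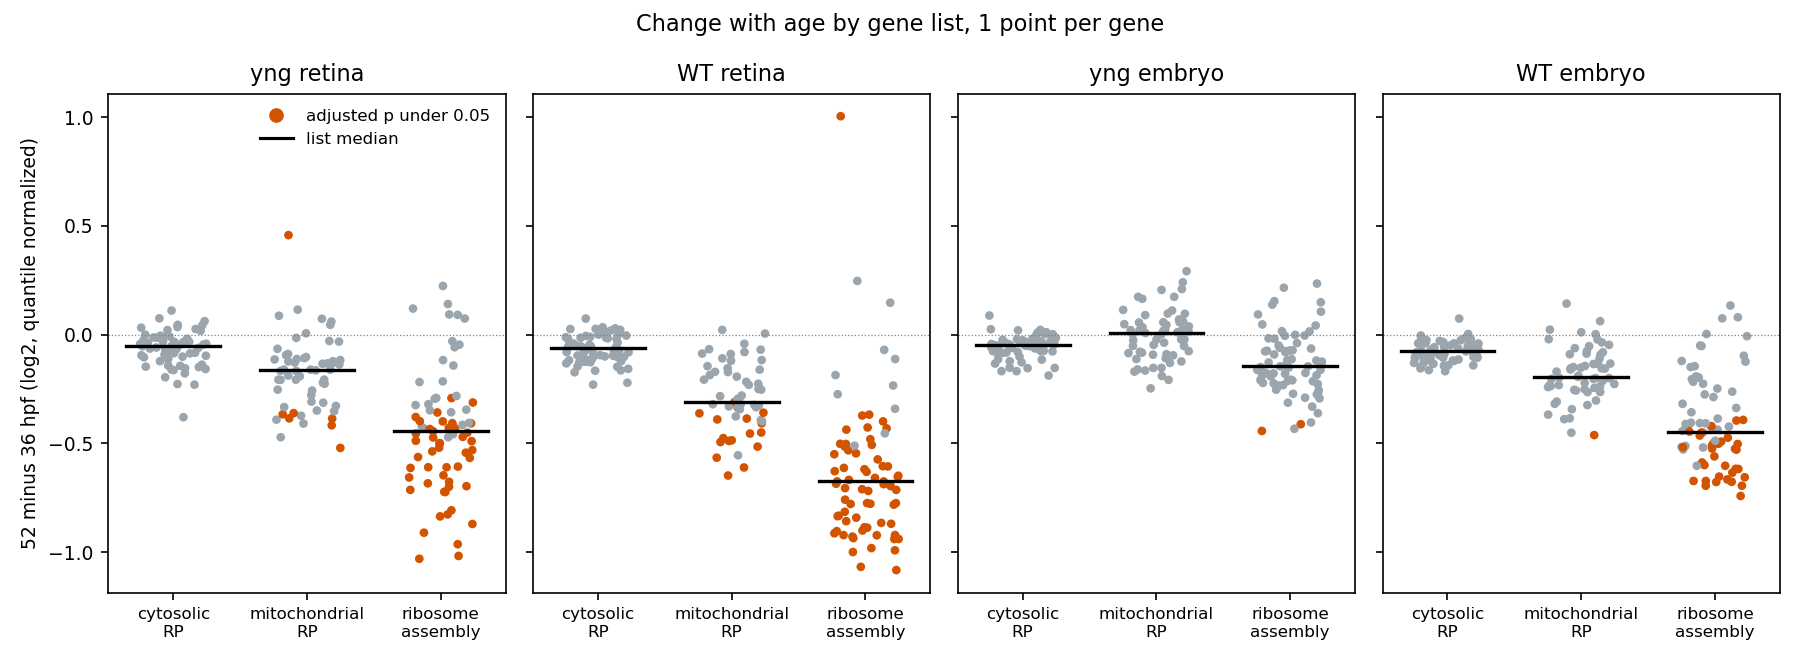
Difference between 52 and 36 hpf on the log2 scale (y axis) for 67 cytosolic ribosomal protein genes, 59 mitochondrial ribosomal protein genes and 75 genes of ribosome assembly (x axis), 1 point per gene, in the 4 groups of genotype and tissue, with genes past the threshold in orange and list medians in black. The cytosolic set stays near 0 in each group, with medians from -0.048 to -0.075, and the assembly genes of WT retinas have a median of -0.68.

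Genes that build ribosomes were measured on the same arrays, and their values stand beside those of the ribosomal proteins. Of 75 genes of ribosome assembly and rRNA synthesis, 64 were lower and 1 higher at 52 hpf in WT retinas, with a median of -0.68, and 49 were lower and 0 higher in yng retinas, with a median of -0.44. In embryos 2 were lower in yng, with a median of -0.15, and 35 in WT, with a median of -0.45. Of all probe sets 20.8% were lower at 52 hpf in WT retinas, 13.4% in yng retinas, 3.79% in yng embryos and 6.99% in WT embryos. bop1, a factor of large-subunit maturation, differed by -1.07 in WT retinas (SE 0.17, limma adjusted p = 3.771e-05), and ddx51, a helicase of the nucleolus, by -1.08 (SE 0.15, limma adjusted p = 5.438e-06). polr1a, the largest subunit of RNA polymerase I, differed by -1.03 in yng retinas (SE 0.21, limma adjusted p = 0.0009164). The gene that was higher in WT retinas at 52 hpf was mycb, a Myc transcription factor, at 1.00 (SE 0.12, limma adjusted p = 1.549e-06).

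Of 59 mitochondrial ribosomal protein genes, 18 were lower at 52 hpf in WT retinas and 6 in yng retinas, where mrps33 was higher, and 1 was lower in WT embryos. Of all probe sets 20.8%, 13.4% and 6.99% were lower in these groups, so the counts in yng retinas and WT embryos were no more than the array as a whole. Their median differences were -0.31 in WT retinas and -0.16 in yng retinas. Between genotypes 7 were lower in yng embryos at 36 hpf, with a median of -0.34 over the list, and 3 in yng retinas at 36 hpf, against 3.17% and 4.9% of all probe sets. The count in yng retinas was thus near the share of the array as a whole. With the day block the counts in embryos and retinas were 34 and 21, against 7.7% and 8.99%. Of the assembly genes 7 were lower in yng embryos at 36 hpf, against the same 3.17%. In yng retinas at 52 hpf 5 of the 75 were higher and 1 lower, against 10.0% and 9.7% of all probe sets, so no more than the array as a whole. With the day block 27 were lower and 2 higher in yng embryos at 36 hpf, against 7.7% and 6.48%, and 22 were higher and 2 lower in yng retinas at 52 hpf, against 16.5% and 14.2%. A list of other genes was taken by name, from mRNAs known in vertebrates to begin with an oligopyrimidine tract. Their sequences were not checked here. Some genes of the list moved far: eef1a1a, an elongation factor gene, differed by 2.85 between 52 and 36 hpf in WT retinas and by -1.93 between yng and WT retinas at 52 hpf. eif3eb, a subunit of an initiation factor, was lower in yng in all 4 genotype comparisons, by between -0.96 and -1.27. eef2l2 went both ways: it was higher in yng retinas at 52 hpf, by 1.21 (SE 0.14, limma adjusted p = 1.847e-06), and lower at 36 hpf, by -0.58 (SE 0.14, limma adjusted p = 0.01091). Against embryos eef2l2 was far lower in retinas, by -3.35 and -4.97 in yng and -4.23 and -4.32 in WT at 52 and 36 hpf. The part of carried-over tissue in its retina values was not tested. Over the 25 genes of that list the median difference between genotypes lay between -0.011 and 0.023.

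The third comparison set retina against whole embryo at the same genotype and age. The 67 were slightly higher in retinas after quantile normalization, with medians of 0.13 in yng at 52 hpf, 0.15 in yng at 36 hpf, 0.14 in WT at 52 hpf and 0.12 in WT at 36 hpf. The medians over all probe sets were 0.40, 0.40, 0.37 and 0.39. The numbers of the 67 that passed as higher were 10, 8, 9 and 7 in these 4 comparisons, and none passed as lower. Of all probe sets 51.2%, 51.8%, 49.8% and 51.1% passed as higher and 22.5%, 23.2%, 20.2% and 22.4% as lower. Beside them, 69, 74, 65 and 74 of the 75 assembly genes and 39, 50, 40 and 48 of the 59 mitochondrial ribosomal protein genes passed as higher in retinas.

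The number of these calls changed with the scaling of the arrays. On the values as deposited none of the 67 passed either way and the medians were -0.002, -0.002, 0.046 and 0.014, while 51.8%, 54.9%, 45.4% and 50.9% of all probe sets passed. With each array scaled to the same median, 65, 67, 67 and 67 of the 67 passed as higher, with medians of 0.53, 0.53, 0.55 and 0.58, against 0.42, 0.40, 0.41 and 0.40 over all probe sets. There 52.3%, 51.5%, 51.7% and 51.0% of all probe sets passed as higher. Leaving out 1 array changed the number of the 69 that passed to between 3 and 14. Without the arrays of replicate 1 of an embryo group the number was 3 in yng at 52 hpf, 3 in yng at 36 hpf, 6 in WT at 52 hpf and 3 in WT at 36 hpf, against 12, 10, 11 and 9 with all arrays. With the day block 35, 42, 36 and 33 of the 67 passed as higher, against 56.0%, 56.1%, 52.8% and 55.7% of all probe sets.

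Of the 67, rps29 and rpl28 alone passed as higher in retinas in all 4 comparisons, both on quantile-normalized values. rps29, a small zinc-binding protein of the small subunit, had 6106, 6364 and 7224 in yng retinas at 52 hpf, against 4791, 5355 and 5845 in yng embryos. The groups did not overlap, and the difference was 0.30 (SE 0.12, limma adjusted p = 0.03205). On the deposited scale rps29 differed by 0.062 there, with a limma adjusted p of 0.74. rpl28, a large-subunit protein, had 7102, 7702 and 7915 in yng retinas at 52 hpf, against 6078, 6616 and 6681 in yng embryos, a difference of 0.23 (SE 0.089, limma adjusted p = 0.02684). As deposited, rpl28 differed by 0.007 in yng at 52 hpf and by -0.021 in yng at 36 hpf.

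A further 2 genes passed in 3 of the comparisons, rpsa and rpl37. rpsa had 14020, 15010 and 15960 in yng retinas at 52 hpf, against 12320, 13020 and 12520 in yng embryos, a difference of 0.25 (SE 0.081, limma adjusted p = 0.01029). rpl37, a large-subunit protein, had 6222, 6860 and 6090 in yng retinas at 52 hpf, against 4826, 5720 and 5016 in yng embryos, a difference of 0.30 (SE 0.11, limma adjusted p = 0.02081). The retina arrays of both genes were above the embryo arrays at that age in yng. Another 6 genes passed in 2 comparisons, 8 in 1 and 49 in none. Of the 6, rps27a, rps21, rps26 and rpl30 passed at 52 hpf in both genotypes, rps3 in yng at both ages and rps25 in WT at both ages, with differences of 0.16 to 0.22. The 8 were rpl31 in yng at 52 hpf, rplp0, rps9 and rps10 in yng at 36 hpf, rpl38 in WT at 52 hpf, and rpl39, rps24 and rps26l in WT at 36 hpf, with differences of 0.18 to 0.32.

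The difference was larger for dimmer members. The 33 dimmest of the 67 had medians of 0.15, 0.17, 0.19 and 0.17 in yng at 52 and 36 hpf and WT at 52 and 36 hpf, and the 33 brightest had medians of 0.11, 0.12, 0.12 and 0.11. Across the 67 genes, which share arrays, the correlation of the difference with mean log2 intensity was -0.41, -0.64, -0.49 and -0.68. On deposited values it was 0.24, 0.076, 0.010 and 0.023.

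Among the members rps27l ran the other way, and did so under each scaling tried. It was lower in retinas than in embryos by -1.16 in yng at 52 hpf, -0.91 in yng at 36 hpf, -1.82 in WT at 52 hpf and -0.79 in WT at 36 hpf (SE 0.18 each). The limma adjusted p lay between 1.918e-08 and 0.0005634, and the arrays of the tissues did not overlap. As deposited the differences were -1.51, -1.26, -2.18 and -1.19. rps6kal was higher in retinas, with 276, 252 and 323 in yng retinas at 52 hpf, against 151, 118 and 127 in yng embryos. Its difference was 1.02, 0.99, 0.94 and 1.01 (SE 0.14 each), with limma adjusted p between 2.378e-06 and 8.315e-06, and 0.45 to 0.51 as deposited.

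Another measure was the share of an array's summed deposited intensity that fell on the 67. It was 6.73 ± 0.26% in yng and 6.66 ± 0.40% in WT retinas at 52 hpf, and 7.17 ± 0.15% in yng and 7.23 ± 0.20% in WT retinas at 36 hpf (SD, n = 3 each). It was 5.43 ± 0.21% in yng and 5.36 ± 0.40% in WT embryos at 52 hpf, and 5.71 ± 0.24% in yng and 5.68 ± 0.21% in WT embryos at 36 hpf (SD, n = 3 each). Retinas, at 6.22 to 7.44%, did not overlap with embryos, at 4.95 to 5.88%. The share was lower at 52 hpf than at 36 hpf in 12 of 12 pairs of arrays with the same number, and higher in yng than in WT in 6 of 12. The mean log2 deposited intensity of the 67 did not separate the tissues: it was 13.08 to 13.34 on retina arrays and 13.04 to 13.34 on embryo arrays.

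**Figure D4:**
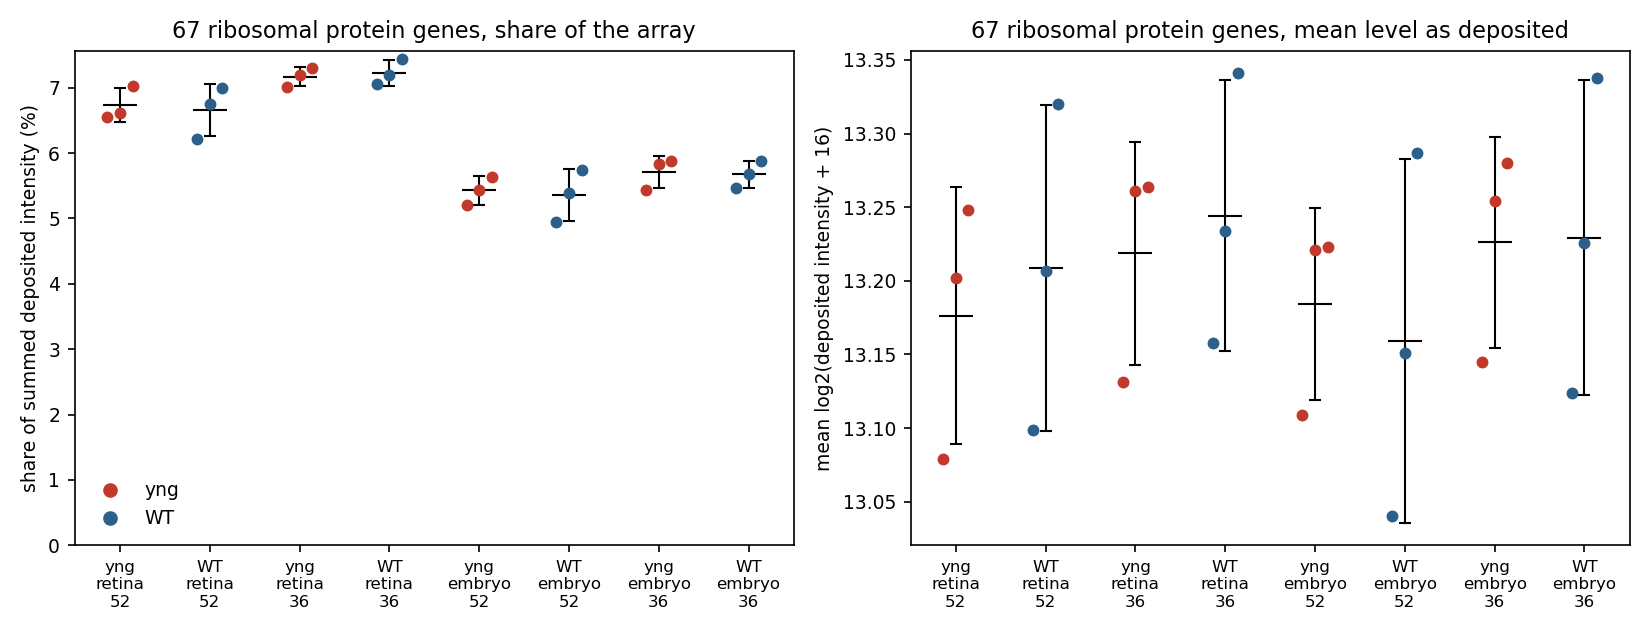
Share of the summed deposited intensity of an array that fell on the 67 genes, in percent (left, from 0), and mean log2(deposited intensity + 16) of the same genes (right, cropped log2 axis), for each array by group (x axis), with mean and SD. Retinas lie at 6.22 to 7.44% and embryos at 4.95 to 5.88%, while the mean levels on the right overlap, and replicate 1, drawn leftmost in each group, is the lowest.

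The 67 varied together from array to array. The arrays of replicate 1 had the lowest mean of the 67 in 8 of 8 groups and those of replicate 3 the highest in 8 of 8, after quantile normalization. Averaged over groups the arrays deviated from their group means by -0.066, 0.020 and 0.046 on the log2 scale in replicates 1, 2 and 3. The correlation of the deviations between 2 of the 67 genes had a median of 0.40 over 24 arrays, and rps27l had a median correlation of 0.44 with the 67. The 67 genes are thus not independent measurements.

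Some ribosomal proteins and relatives carry symbols outside the rule, and 8 of them were measured. faub, which encodes a ubiquitin-like protein fused to ribosomal protein S30, was higher in yng in all 4 genotype comparisons. In retinas at 36 hpf it had 573, 420 and 535 in yng, against 208, 198 and 265 in WT, a difference of 1.13 (SE 0.14, limma adjusted p = 1.819e-05). In retinas at 52 hpf it had 334, 285 and 304 in yng, against 171, 139 and 175 in WT, a difference of 0.87 (SE 0.14, limma adjusted p = 0.0001241). The groups did not overlap in either. The embryo differences were 0.74 at 52 hpf (SE 0.14, limma adjusted p = 0.00243) and 0.58 at 36 hpf (SE 0.14, limma adjusted p = 0.01867). With the day block, faub passed the test of genotype against tissue at 36 hpf (0.55, limma adjusted p = 0.0375, against 0.2302 without the block). It also passed that of age against tissue in yng (-0.57, limma adjusted p = 0.01155, against 0.08991 without the block). Between genotypes its duplicate faua differed by between -0.062 and 0.005, with no call.

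faub was also lower at 52 hpf than at 36 hpf in retinas, by -0.69 in yng (SE 0.14, limma adjusted p = 0.0009521) and -0.43 in WT (SE 0.14, limma adjusted p = 0.02388), the WT call being lost on deposited values at -0.31. rack1, a scaffold protein on the small subunit, differed between genotypes by between -0.032 and 0.020. rpl22l1 and faua passed as higher in retinas in each tissue comparison, by 0.26 to 0.34 and 0.20 to 0.26. There 49.8% to 51.8% of all probe sets passed as higher, and neither gene passed on deposited values. faub passed as higher in retinas in yng at 36 hpf alone (0.40). On deposited values that call was lost, and faub passed as lower in yng at 52 hpf (-0.69) and in WT at 52 and 36 hpf (-0.80 and -0.73). rplp2b, a relative of rplp2 by name, differed between ages by between -0.054 and 0.037, with no call between ages or genotypes. Between tissues rplp2b passed as higher in retinas in yng at 52 hpf alone (0.19), and not on deposited values. rps27.1 and rps27.2, the closest relatives of rps27l by name, did not pass in any genotype comparison. rps27.2 differed by -0.17 between yng and WT retinas at 52 hpf, and the 3 probe sets of rps27.1 by between 0.001 and 0.061. Like rps27l, rps27.2 was lower in retinas than in embryos, by -0.61 and -0.355 in yng and -0.351 and -0.298 in WT at 52 and 36 hpf. The first passed (limma adjusted p = 0.009865), and all passed with the day block. On deposited values all but WT at 52 hpf passed, and with median scaling none did. The probe sets of rps27.1 were higher in retinas after quantile normalization, by 0.17 to 0.41. The brightest passed in yng at 52 hpf alone, another in each comparison and the last in none. On deposited values none of them passed. There the brightest differed by 0.003 and -0.105 in yng and 0.036 and -0.07 in WT at 52 and 36 hpf. Whether probes of rps27l also bind the transcripts of rps27.1 and rps27.2 was not tested. rpl7l1, a relative of rpl7, was lower at 52 hpf in yng retinas, by -0.55 (SE 0.15, limma adjusted p = 0.006569), and in WT retinas, by -0.73 (SE 0.15, limma adjusted p = 0.0003754). Against embryos rpl7l1 passed as higher in yng retinas at 52 and 36 hpf (0.49 and 0.84) and in WT retinas at 36 hpf (0.73). On deposited values its calls at 36 hpf held, at 0.52 in yng and 0.45 in WT, and the call at 52 hpf did not. With the day block, rpl7l1 also passed as lower at 52 hpf in WT embryos (limma adjusted p = 0.03843, against 0.165 without the block). In that fit it also passed as lower in yng than in WT embryos at 36 hpf (limma adjusted p = 0.04392, against 0.3338 without the block). There rpl7l1 passed the test of age against tissue in WT as well (-0.43, limma adjusted p = 0.02948, against 0.238 without the block).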

How the data were processed

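RNA from 24 pools was measured on Affymetrix zebrafish arrays, 3 per group, which the labels call biological replicates. Per the labels, 33 ng of total RNA was amplified in 2 rounds. The authors deposited 1 linear intensity per probe set and array, and the method of summarising probes and scaling arrays is not stated by the labels or headers read here. Instrument text records were read for hybridization day, fluidics station, module and wash error only.

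Here 115 of 15617 probe sets were controls and were removed, and intensities of the other 15502 were quantile-normalized, 16 was added and log2 taken. One model of 8 groups gave 18 contrasts with limma 3.58.1 in R 4.3.3 (16 residual degrees of freedom), with Benjamini-Hochberg adjustment over all probe sets and a threshold of 0.05. Intensities printed per array are normalized unless called deposited. The number of arrays limits the precision. Tables were made with Python 3.11.15, pandas 2.3.3, scipy 1.17.1 and matplotlib 3.10.9. The procedure was tested on simulated data for yng against WT retinas at 52 hpf. The simulated noise was independent between arrays and probe sets, so it lacked the shared hybridization day. The fit recovered 34.3% of changes of 0.5 log2 units, 85.1% of 1 and 100% of 2, with 17 false calls beside them.

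Of the tested probe sets 10795 carried 1 gene symbol in the platform annotation, 135 several and 4572 none. All 69 member symbols were found by gene ID in the RefSeq annotation of GRCz12tu, and none changed. Members, role genes and comparison lists were chosen with earlier results of these data known. Named were genes past the threshold, the extremes of each contrast, a set of genes with known roles, and up to 4 genes per comparison list. The pool that met a wash error, yng retina 36 hpf replicate 1, was kept.

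Replicate numbers were checked for pairing: deviations from group means correlated with a median of 0.33 for arrays of the same number and -0.17 otherwise, and 83 of 84 same-number pairs exceeded 0.1 (lowest 0.074). No label says what a number shares, but the instrument records tie it to a hybridization day, apart from WT embryo 52 hpf replicate 3, so the number stands for a batch. The main model has no block. A fit with the day as a block, added after the data were seen, is given beside the member counts it changes most and for some genes outside the rule. Other alternatives were deposited values, median scaling, offsets of 1 and 64, a filter at a mean intensity of 50, only the groups compared, a replicate block, unmoderated variances, other choices of probe set and leaving out each array.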

Additional observations from a re-analysis of the deposited data

Results flagged for a closer look

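1 result is listed here because the change of a gene with age differed between tissues by a test of the difference itself. In WT animals the difference of rps27l between 52 and 36 hpf was -0.94 in retinas and 0.088 in embryos, and the first exceeded the second by -1.029 on the log2 scale (SE 0.25, limma adjusted p = 0.008298, and 0.0001007 with the hybridization day as a block). The retina arrays read 305, 398 and 375 at 52 hpf, against 662, 741 and 701 at 36 hpf. The embryo arrays read 1200, 1427 and 1285 at 52 hpf, against 1005, 1422 and 1281 at 36 hpf. In yng animals the same difference of differences was -0.25 (limma adjusted p = 0.7227). The WT and yng values were not tested against each other. Each combination of tissue and age had its own fluidics module, so effects of module cannot be told apart from such a difference.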

How the results depend on the processing

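Counts here are of the 69 genes past the threshold. The brightest members lie near the top of the intensity range, where compression of differences was not tested, and where a count moved the cause was not tested. rps27l, at deposited intensities of 262 to 2141, and rps6kal, at 108.8 to 270.8, lie far below that top. The call of rps27l in retinas at 52 hpf held when each array was left out. As rps27l was the only gene called there, the genotype count without rps27l and rps6kal was 0 by construction. The same holds for such counts given below for WT retinas between ages and for age by tissue in WT. In the other genotype comparisons, with 0 in the main result, the replicate block gave 1 in retinas at 36 hpf, 1 in embryos at 52 hpf and 1 in embryos at 36 hpf, and the hybridization day block 1, 0 and 1, the gene being rps27l.

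Between ages, yng retinas had 0, against 10 with the replicate block, 9 with the day block and 2 with unmoderated variances. WT retinas had 1, against 8 with the replicate block, 6 with the day block, 3 with median scaling, 3 with unmoderated variances, 2 with an offset of 64 and 0 without rps27l and rps6kal, and 1 to 2 when 1 array was left out (2 without WT retina 36 hpf replicate 1). WT embryos had 0, against 1 with either block.

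Between tissues the counts for yng at 52 hpf, yng at 36 hpf, WT at 52 hpf and WT at 36 hpf were 12, 10, 11 and 9. They were 2, 2, 2 and 2 as deposited, and 67, 69, 69 and 69 with median scaling. They were 4, 3, 2 and 3 with only the groups compared, 38, 44, 41 and 36 with the replicate block, 37, 44, 38 and 35 with the day block, and 30, 31, 28 and 27 with unmoderated variances. Deposited values with the replicate block gave 3, 2, 3 and 2, and median scaling with it 69, 69, 69 and 69. An offset of 64 gave 17 in WT at 52 hpf. Leaving out 1 array gave 3 to 14, 3 to 10, 5 to 14 and 3 to 7. In yng at 52 hpf the count was 3 and 7 without embryo replicates 1 and 2, and 5 and 4 without retina replicates 2 and 3. In yng at 36 hpf it was 3 without embryo replicate 1, and 6 and 4 without retina replicates 2 and 3. In WT at 52 hpf it was 6 without embryo replicate 1, and 7 and 5 without retina replicates 2 and 3. In WT at 36 hpf it was 3 and 5 without embryo replicates 1 and 2, and 4 and 4 without retina replicates 2 and 3. rpl28 turned to -0.021 in yng and -0.000 in WT at 36 hpf on deposited values.

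Of the interactions, genotype by age in retinas and genotype by tissue at 52 hpf had 0, against 1 with either block, and age by tissue in WT had 1, against 0 without rps27l and rps6kal. Neither block moved another count by over 1.5 times. Each of 24 arrays correlated best with arrays of its own number, which the instrument records tie to a hybridization day apart from WT embryo 52 hpf replicate 3.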
